A study of Mus musculus with 4 samples.

Results

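The 10 genes described here encode building blocks of the actin and tubulin cytoskeleton and the small proteins that handle actin monomers. They are the cytoplasmic actins Actb and Actg1, the β-thymosins Tmsb4x and Tmsb10, cofilin (Cfl1), profilin (Pfn1), the α-tubulins Tuba1a and Tuba1b, and the β-tubulins Tubb4a and Tubb5. They were picked by symbol from the 31053 genes of the count matrices, and all 10 were found. Their levels were read in classes of cells that were called from marker genes measured in the same cells, so differences between classes are given as a description, with no test. The tests concern digestion with or without inhibitors. Classes were called without the group labels, but the genes and tests were chosen with earlier results of these data known.

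Whole brains of 4 male C57BL/6J mice aged 90 days, with the meninges removed, were dissociated with enzymes at 37 °C and profiled by droplet-based single-cell RNA-seq, 1 library per mouse. In 2 mice no inhibitor was added. In the other 2 mice the transcription inhibitors actinomycin D and triptolide were present from the perfusion through the dissection to the digestion, and the translation inhibitor anisomycin from the dissection onward. All 4 mice were wild type, both groups went through the same warm digestion, and the labels place all libraries in 1 batch, so the contrast concerns the inhibitors and not the digestion itself. Libraries are named below as without inhibitors 1 and 2 and with inhibitors 1 and 2, and 4 values in a row follow that order.

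Actin monomers assemble into filaments that shape the cell cortex and drive migration. β-thymosins hold monomers in reserve, profilin returns them to growing filament ends, and cofilin severs and disassembles old filaments. Microtubules are built from dimers of an α- and a β-tubulin, each encoded by several genes whose use differs between cell types. Microglia, the resident macrophages of the brain, keep motile processes. Oligodendrocytes carry microtubules along the myelin they make, and ependymal cells bear motile cilia with a microtubule core.

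The paired genes encode similar proteins, so coding stretches of the actins and the β-tubulins are shown where they differ. The actins differ mainly near the start of the protein, and the β-tubulins at the acidic tail that follows the folded domain. The stretches below are coding strand, from the GENCODE M21 transcripts on GRCm38, with capitals at the bases that differ from the other gene of the pair.
Actb, first 36 coding bases, exon 2 of 6, chr5:142905651-142905686, minus strand: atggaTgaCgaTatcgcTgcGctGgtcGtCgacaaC
Actg1, first 36 coding bases, exon 2 of 6, chr11:120348056-120348091, minus strand: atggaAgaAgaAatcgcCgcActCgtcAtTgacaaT
Tubb4a, last 66 coding bases, exon 4 of 4, chr17:57080690-57080755, minus strand: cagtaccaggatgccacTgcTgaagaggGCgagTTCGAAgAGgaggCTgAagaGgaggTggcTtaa
Tubb5, last 66 coding bases, exon 4 of 4, chr17:35834982-35835047, minus strand: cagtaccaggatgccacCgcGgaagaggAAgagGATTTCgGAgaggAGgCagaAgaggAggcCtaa

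The 2 actin stretches differ at 9 of 36 bases and the β-tubulin stretches at 18 of 66. Over the whole coding sequence the identity was 88.65% for the actins, 98.3% for Tuba1a and Tuba1b, 83.52% for Tubb4a and Tubb5 and 70.37% for the β-thymosins. Reads of this assay fall near the 3′ end of a transcript. Among the 403 windows of 98 bases in the last 500 transcript bases, 206 of Tuba1a (51.12%) and 234 of Tuba1b (58.06%) also occur in a transcript of another gene, and 134 of Tmsb10 (33.25%) do, while no window of the other 7 genes does. Because Cell Ranger counts reads that map to a single gene, the levels of Tuba1a, Tuba1b and Tmsb10 may be understated and are uncertain in that respect.

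In GRCm38 coordinates of the same annotation, Actb lies at chr5:142903115-142906754, Actg1 at chr11:120345690-120348542, Tmsb4x at chrX:167207093-167209315 and Tmsb10 at chr6:72957347-72958748. Cfl1 lies at chr19:5490455-5495201 and Pfn1 at chr11:70651850-70654644. Tuba1a at chr15:98949837-98953703 and Tuba1b at chr15:98931425-98934565 are neighbours, and the β-tubulin genes lie on chromosome 17, Tubb4a at chr17:57080066-57087782 and Tubb5 at chr17:35833921-35838306. Counts are of unique molecular identifiers (UMIs), each standing for 1 captured transcript end irrespective of transcript length.

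The libraries held 5134359 to 7529804 UMIs in 2571 to 3597 barcodes. Of all 12487 barcodes, 10067 passed the filters, 206 (2.05%) were called doublets and 9861 cells were kept. In all, 67 barcodes occurred in more than 1 library, 45 of them kept. The cells fell into 26 clusters, which took 14 names from marker genes except for 1 cluster of 97 cells that stayed unnamed. Replicate libraries of a group differed beyond sampling noise, with a chi-square per degree of freedom of 6.14 without and 4.93 with inhibitors. A class is called X-like because it is named from its markers. The 8 classes with at least 20 cells in each library are like microglia (3253 cells), astrocytes (1949), endothelium (1717), oligodendrocytes (892), choroid plexus (619), neurons (321), mural cells (309) and ependyma (187). Levels are in CPM, the UMIs of a gene per 1000000 UMIs of the class in a library, as mean ± SD over the libraries (n = 4 unless stated). The orders below are over these 8 larger classes, and the rarer ones follow.

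Actb, the β-actin found in nearly all cells, was highest in microglia-like cells. It reached 10765, 8240, 9490 and 10546 CPM in the 4 libraries there, a mean of 9760 ± 1157. All 4 values exceed every value of endothelial-like cells, where the mean was 6857 ± 218. Mural-like cells (7411 ± 1475) overlapped both, and oligodendrocyte-like cells followed at 5833 ± 684. A gap then opened, since the lowest oligodendrocyte-like library (5102 CPM) lay above the highest choroid plexus-like one (3847). Choroid plexus-like, astrocyte-like, ependymal-like and neuron-like cells, at 2853 ± 1064, 2353 ± 103, 2071 ± 470 and 2011 ± 183, overlapped their neighbours in this order. The highest mean was 4.85 times the lowest.

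Actg1, the γ-actin, followed another order. Of the 8 larger classes it was highest in endothelial-like cells, at 1365, 1434, 1414 and 1331 CPM, and lowest in oligodendrocyte-like cells, at 410, 379, 340 and 348. Endothelial-like (1386 ± 46.7), mural-like (1076 ± 85.8) and ependymal-like cells (608 ± 29.7) did not overlap each other or the 5 remaining classes, which ranged in mean from 369 to 432 and overlapped their neighbours in this order. Microglia-like cells, the highest class for Actb, were thus in the low group for Actg1 at 432 ± 40.3. The mural-like class held a cluster led by Acta2, at 1034, 1224, 1273 and 1150 CPM of Actg1, which also carried endothelial markers. Its cluster led by Vtn was at 562, 560, 748 and 500 CPM, a range that overlaps ependymal-like cells.

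Tmsb4x, the main β-thymosin of blood and immune cells, separated the classes more widely. Microglia-like cells gave 15888, 15150, 16106 and 16943 CPM, above endothelial-like cells at 9589 ± 270, and no library of these classes overlapped. Oligodendrocyte-like (6095 ± 319) and mural-like cells (5751 ± 735) came next and overlapped. Choroid plexus-like cells were lowest, at 241, 424, 339 and 472 CPM, below every library of astrocyte-like cells (1197 ± 105). The ratio of the highest to the lowest mean was 43.4.

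Tmsb10, which also binds actin monomers, reached 2815, 2687, 3236 and 2997 CPM in endothelial-like cells. Mural-like cells at 1114 ± 406 and neuron-like cells at 798 ± 243 overlapped each other below them. The mural-like cluster led by Acta2 gave 1646, 1609, 536 and 1003 CPM, and the cluster led by Vtn 674, 352, 1084 and 361. Astrocyte-like cells were lowest, at 71.7, 75.8, 60.5 and 63.3 CPM, and did not overlap oligodendrocyte-like cells at 150 ± 14.2. Its range of 43.2-fold was close to that of Tmsb4x, but the order was not. Microglia-like cells, first for Tmsb4x, gave 324 ± 42.9 CPM of Tmsb10.

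Pfn1 was highest in microglia-like cells, with 1664, 1422, 1673 and 1644 CPM, and the next class, endothelial-like cells at 647 ± 46.9, did not overlap. Endothelial-like, mural-like, choroid plexus-like and oligodendrocyte-like cells were close together, with means of 610 to 647 CPM, and overlapped. Neuron-like cells were lowest at 238 ± 10.5.

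In CPM, Cfl1 had the smallest contrast between classes after Actg1, at 4.39-fold. Of the 8 larger classes it was highest in oligodendrocyte-like cells, with 1263, 1185, 1109 and 955 CPM, which lay above all libraries of endothelial-like (778 ± 72.0) and microglia-like cells (733 ± 50.0). Ependymal-like cells were lowest at 257 ± 49.4. The highest class was therefore microglia-like for 3 of the 6 actins and actin-handling genes, endothelial-like for 2 and oligodendrocyte-like for 1.

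Tuba1a was highest in ependymal-like cells, with 3370, 3640, 2967 and 4031 CPM. No other of the 8 classes overlapped these values. Oligodendrocyte-like (1203 ± 259) and endothelial-like cells (994 ± 95.4) followed, and microglia-like cells were lowest at 227 ± 18.8, overlapping choroid plexus-like cells. The ratio of the extremes was 15.4.

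Tuba1b was also highest in ependymal-like cells, at 748 ± 99.1 CPM, but overlapped endothelial-like cells at 643 ± 58.7. Oligodendrocyte-like cells, second for Tuba1a, were lowest for Tuba1b at 174, 141, 138 and 86.8 CPM, and overlapped astrocyte-like cells (145 ± 9.5). Tuba1b thus spanned 5.55-fold.

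Tubb4a, a β-tubulin known from myelinating glia and neurons, had the steepest profile. Oligodendrocyte-like cells gave 2574, 1965, 2751 and 2447 CPM, and neuron-like cells gave 190, 271, 169 and 214. The remaining 6 classes had means of 12.1 to 26.4 CPM and overlapped their neighbours in this order, but every astrocyte-like library (20.9 to 31.7 CPM) lay above every endothelial-like one (6.74 to 15.9). Erythrocyte-like cells, which lack microtubules when mature, gave 19.8 ± 26.8 CPM from 7 UMIs. That SD exceeds the mean, so this value is too uncertain to serve as a floor for the 6 classes. The part of RNA carried into the droplets in the low levels of those classes was not tested. The extremes differed 201-fold.

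Tubb5, the β-tubulin widespread in dividing and developing cells, was highest in endothelial-like cells, at 587, 648, 596 and 558 CPM. Microglia-like (378 ± 35.6), mural-like (346 ± 47.2) and neuron-like cells (252 ± 36.8) lay below. Oligodendrocyte-like, choroid plexus-like, ependymal-like and astrocyte-like cells had means of 77.8 to 116 CPM and overlapped. The class with the highest level was the same for all 10 genes when each cell was thinned to 1000 UMIs and when only deeper cells with few mitochondrial UMIs were kept. The lowest class became ependymal-like for Tubb4a and Tubb5 in both settings, and for Actb and Pfn1 in the deeper cells. After thinning, Cfl1 spanned 2.95-fold, less than Actg1 at 3.94-fold.

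**Figure D1:**
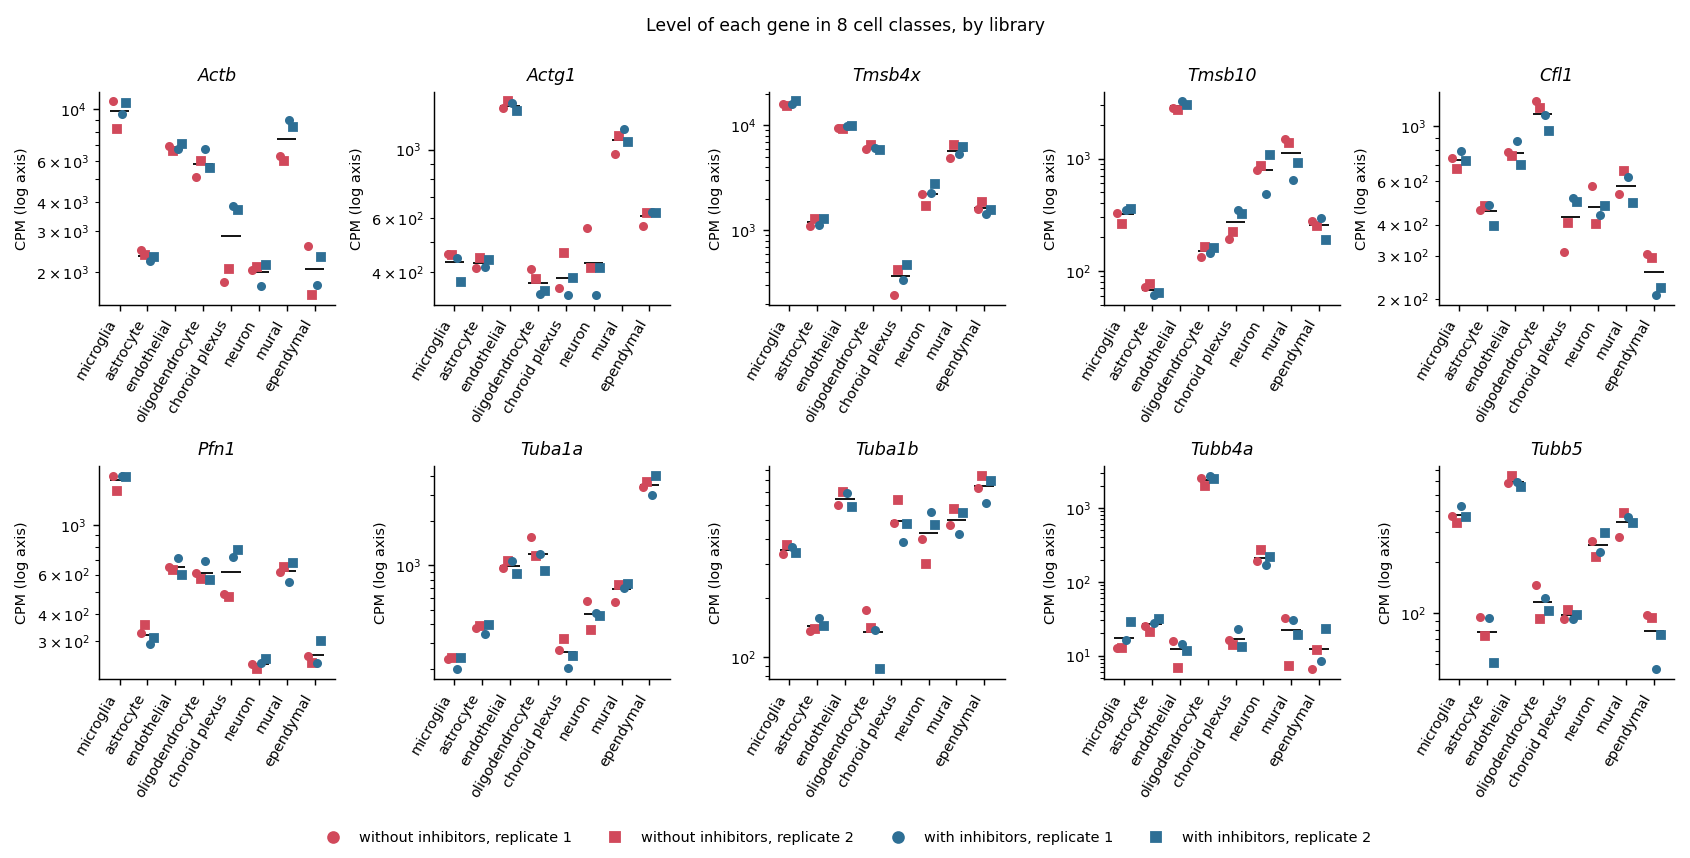
Level of each of the 10 genes in CPM (log axis) in the 8 cell classes, with 1 point per library (red without and blue with inhibitors, circle for replicate 1 and square for replicate 2) and a bar at the mean of the 4 libraries. Actb, Tmsb4x and Pfn1 peak in microglia-like cells, Tubb4a stands at 2434 CPM in oligodendrocyte-like and 211 CPM in neuron-like cells against at most 26.4 CPM elsewhere, and the red and blue points of Actb part in choroid plexus-like cells.

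The paired genes were also compared as shares of their summed UMIs within a class, a ratio that does not depend on the other genes of the library. Actb made up 95.7% ± 0.76 of actin UMIs in microglia-like and 94.0% ± 1.08 in oligodendrocyte-like cells, against 76.7% ± 4.70 in ependymal-like cells. Tmsb4x made up 98.03% ± 0.19 of the pair in microglia-like and 97.6% ± 0.23 in oligodendrocyte-like cells, and 57.5% ± 6.94 in choroid plexus-like cells. Microglia-like and oligodendrocyte-like cells thus had the highest shares of both Actb and Tmsb4x among the 8 classes.

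Among the α-tubulins, Tuba1a made up 90.01% ± 0.97 in oligodendrocyte-like and 82.4% ± 1.00 in ependymal-like cells. The share fell to 39.0% ± 2.61 in microglia-like and 34.4% ± 1.03 in choroid plexus-like cells, where most α-tubulin UMIs of the pair were from Tuba1b. Tubb4a took 95.5% ± 0.58 of its pair in oligodendrocyte-like cells and 45.4% ± 6.93 in neuron-like cells, whose libraries ranged from 41.7% to 55.8%. In endothelial-like cells it took 2.01% ± 0.70. Together the 10 genes made up 2.98% ± 0.19 of all UMIs in microglia-like cells, 2.44% ± 0.06 in endothelial-like cells and 0.54% ± 0.02 in astrocyte-like cells.

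**Figure D2:**
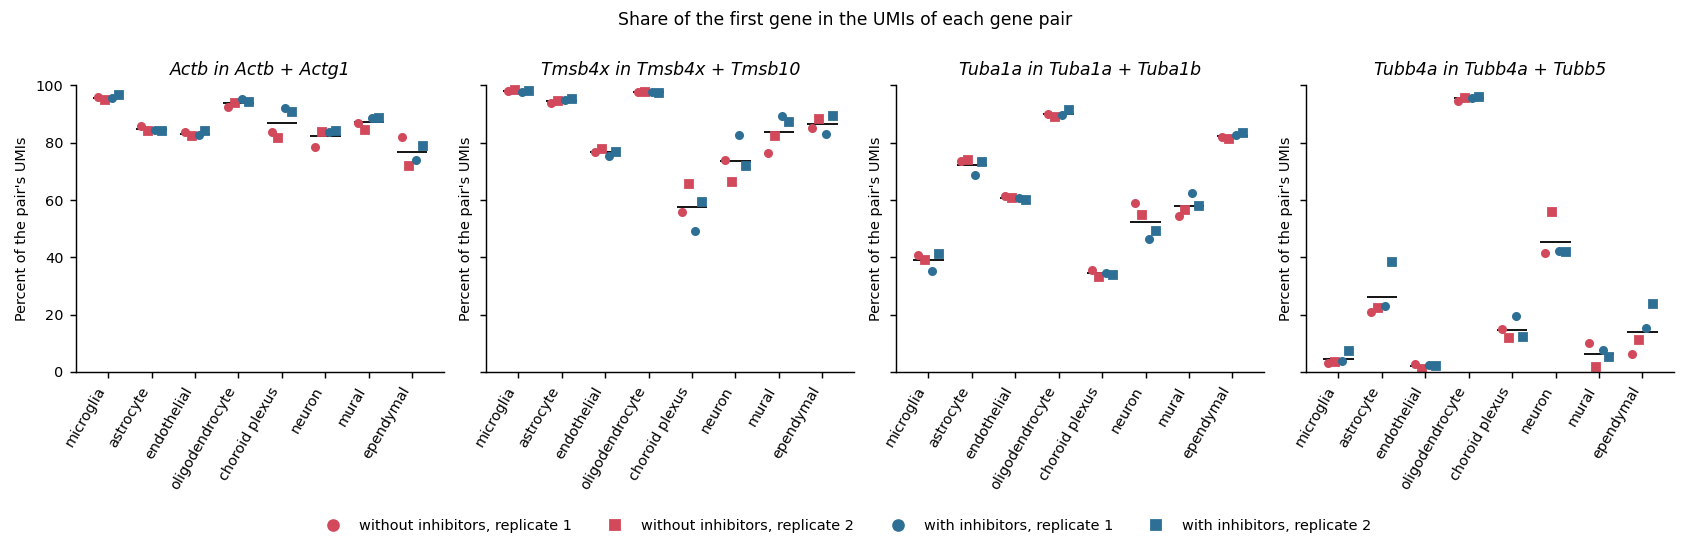
Percent of the UMIs of a gene pair that came from its first gene, by class and library (red without and blue with inhibitors, circle for replicate 1, square for replicate 2, bar at the mean of 4 libraries). Oligodendrocyte-like cells are near the top of all 4 panels, while the Tuba1a share runs from 34.4% in choroid plexus-like to 90.01% in oligodendrocyte-like cells and the Tubb4a share from 2.01% in endothelial-like to 95.5% in oligodendrocyte-like cells.

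A sum over the whole suspension therefore rests on different cells for each gene. Microglia-like cells were 33.0% of cells and held 22.4% of UMIs, but 48.6% of Tmsb4x, 45.5% of Pfn1 and 37.7% of Actb UMIs (means of 4 libraries). Oligodendrocyte-like cells were 9.08% of cells and held 89.7% of Tubb4a UMIs. Endothelial-like cells held 53.6% of Tmsb10 UMIs. Ependymal-like cells, 1.93% of cells, held 17.6% of Tuba1a UMIs. Neural progenitor/neuroblast-like cells, 1.13% of cells, held 17.7% of Tubb5 and 10.8% of Tmsb10 UMIs.

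**Figure D3:**
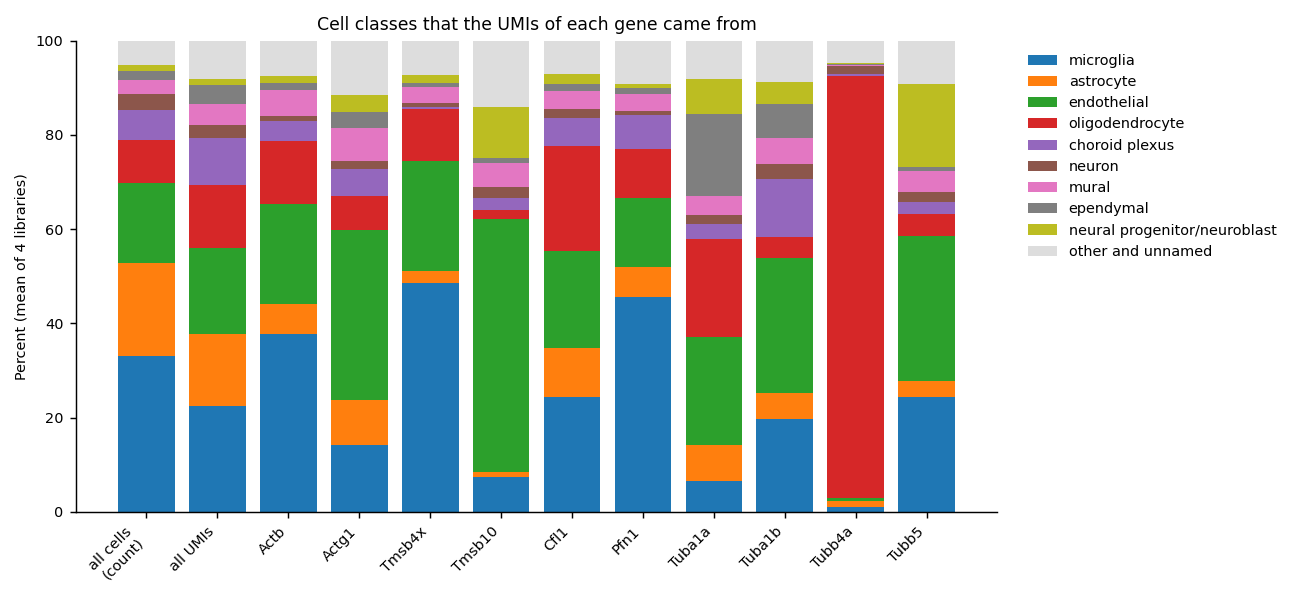
Stacked percent of cells, of all UMIs and of the UMIs of each gene that came from each class, as means of the 4 libraries. Oligodendrocyte-like cells fill 89.7% of the Tubb4a bar, endothelial-like cells 53.6% of the Tmsb10 bar and microglia-like cells 48.6% of the Tmsb4x bar.

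Rarer classes were too small in at least 1 library for the contrast between groups, and are given by level. Neural progenitor/neuroblast-like cells (107 cells) had 8178 ± 1404 CPM of Tmsb10, 4876 ± 289 of Tubb5, 1819 ± 247 of Actg1 and 1465 ± 256 of Tuba1b, each above every library of the 8 larger classes. Tubb5 there was 5099, 4791, 4503 and 5110 CPM. Their Tuba1a level, 4334 ± 518, overlapped that of ependymal-like cells. Oligodendrocyte precursor-like cells (77 cells) had 4062 ± 551 CPM of Tuba1a and 1611 ± 453 of Tubb4a, the latter in the order 1960, 1890, 1626 and 966. The highest of these Tubb4a values lay just under the lowest oligodendrocyte-like one (1965). The same cells carried the 6 oligodendrocyte markers at 24988, 24944, 25472 and 13075 CPM in sum, lowest in the library with the least Tubb4a, and their part in the level was not tested. Cfl1 was 1245 ± 228 CPM there and 1141 ± 177 in the neuroblast-like cells, overlapping the oligodendrocyte-like libraries. Macrophage-like cells (68 cells) resembled microglia-like cells, with 19253 ± 1097 CPM of Tmsb4x, 10317 ± 2378 of Actb and 1580 ± 475 of Pfn1. Fibroblast-like cells (133 cells) had 1775 ± 285 CPM of Tmsb10 and 1176 ± 102 of Actg1.

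Within a class, the spread between cells also differed by gene. After thinning to 1000 UMIs, 2764 microglia-like cells had a median of 4 Actb UMIs, a 5th percentile of 0 and a 95th percentile of 36, and a variance 14.1 times the mean. In the same cells Tmsb4x had a median of 16, a range of 7 to 26 between the same percentiles and a variance 2.26 times the mean. In endothelial-like cells Actb had a median of 3 UMIs, a 95th percentile of 26 and a variance 12.6 times the mean. In astrocyte-like cells the variance of Actb was 3.92 times the mean. The mean Actb UMIs were 9.60 in microglia-like, 6.81 in endothelial-like and 2.18 in astrocyte-like cells. Since the ratio tends to rise with the mean, it does not rank these classes by unevenness. Tubb4a in oligodendrocyte-like cells had a median of 2 and a variance 1.42 times the mean. The share of thinned cells with a Tubb4a UMI was 85.4% in oligodendrocyte-like, 23.5% in neuron-like and 1.92% in erythrocyte-like cells, and 96.7%, 26.3% and 4.59% before thinning.

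The genes whose class profile was most like each member were read from 4720 genes, by the Pearson correlation of log2(mean CPM + 1) over the 8 classes. With 8 points that share their libraries, these values are descriptive. For Actb they were Rac1, a small GTPase of actin remodelling, Adipor1 and Bcl10 (r = 0.953, 0.953 and 0.948). For Actg1 the first was Tpm4, a tropomyosin of actin filaments (0.977), and for Tuba1b it was Tbca, a tubulin folding cofactor (0.983). Tubb4a was most like Pou3f1, a transcription factor of myelinating glia, Map7, a microtubule-associated protein, and Stmn4, a stathmin (0.989, 0.988 and 0.988). Tubb5 was most like Cd34, an endothelial and progenitor surface protein, Srgn, and Arpc3, an Arp2/3 subunit (0.965, 0.965 and 0.959). Pfn1 was nearest Ftl1, a ferritin chain (0.972), Tmsb4x nearest Cttnbp2nl (0.970), Tmsb10 nearest Sema3c (0.944), Cfl1 nearest 2410004B18Rik (0.952) and Tuba1a nearest Eif3c (0.948). The genes next in rank were Sgms1 and AU021092 for Actg1, Hnrnpk and Anxa11 for Tuba1b, and Pold4 and Syngr2 for Pfn1. They were Brd7 and B430010I23Rik for Tmsb4x, Fxyd5 and Thsd1 for Tmsb10, Gatm and Gltp for Cfl1, and Pink1 and Cpd for Tuba1a. Among the members themselves Actb was most like Pfn1 (0.885) and Tmsb4x (0.820), and Tmsb10 most like Tubb5 (0.846).

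The inhibitor contrast asked whether these genes, some of which are often taken as steady reference genes, shifted when transcription and translation were left running during the digestion. UMIs were summed per library and class, and all genes were fitted with edgeR's quasi-likelihood test with Benjamini-Hochberg adjustment over all genes tested. A gene was called when its adjusted p was under 0.05 and its log2 fold change was beyond 0.58 in size, and a positive change is higher without inhibitors. In the sum of all cells 0 of 10 members were called, against 0.0870% of 13787 genes. An unadjusted p under 0.05 was reached by 1 member, beside 939 of 13787 genes. DESeq2 also called 0. Log2 fold changes ran from -0.42 to 0.18. In such sums, fewer cells of a class and less RNA per cell cannot be told apart.

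Tubb4a had the widest spread there, with 413, 219, 414 and 431 CPM after TMM scaling. Without inhibitors 2 was the low library and the groups did not overlap, but the change of -0.42 (SE 0.33) was not called (edgeR, adjusted p = 0.87). When without inhibitors 1 was left out it was -0.95 and called (edgeR, adjusted p = 2.2e-05). The same libraries held 204, 171, 201 and 316 oligodendrocyte-like cells, or 9.24%, 6.21%, 9.62% and 11.25% of their cells. These held 14.05%, 9.17%, 14.27% and 16.43% of the UMIs of the libraries. Within oligodendrocyte-like cells the change was -0.22 (SE 0.10, edgeR, adjusted p = 0.47). The part of the oligodendrocyte-like share in the sum was not tested.

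Microglia-like cells were the centre of the study's question, and there 0 of 10 members were called by edgeR, against 0.524% of 8772 genes. An unadjusted p under 0.05 was reached by 2 members, beside 568 of 8772 genes, and DESeq2 called 0 members. Actb was 11040, 8439, 9476 and 10647 CPM after TMM scaling. The replicates without inhibitors bracketed those with inhibitors, and the change was -0.05 (SE 0.10). Tmsb4x changed by -0.06 (SE 0.10), Pfn1 by -0.08 (SE 0.09) and Cfl1 by -0.07 (SE 0.10), all with adjusted p = 0.99 (edgeR). The values with an unadjusted p under 0.05 were Tmsb10 at -0.24 (SE 0.11) and Tubb4a at -0.83 (SE 0.34). Tubb4a was at 12.96, 12.8, 16.4 and 28.9 CPM, a level that rests on few UMIs. In the same fit 16 of 24 tested genes of the study's consensus activation list rose without inhibitors, with a median log2 change of 2.40 against 0.00043 over all genes. In choroid plexus-like cells 1 of 6 tested genes of that list fell and none rose. The study defined the list in a separate experiment on sorted myeloid cells.

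The activation genes also varied between microglia-like cells, and the members were read on either side of a limit of 7 activation UMIs per 1000. The limit was the 99th percentile of the microglia-like cells with inhibitors. Without inhibitors 1, the 256 cells above it had a mean of 10.1 Actb UMIs and the 396 cells at or below it 10.8. Without inhibitors 2, the 215 cells above had 7.80 and the 529 others 8.35. Tmsb4x was 14.5 against 16.5 and 14.4 against 15.4 UMIs. Actg1 went the other way, with 0.512 against 0.407 and 0.572 against 0.393 UMIs. In both libraries the mean above the limit was lower for 7 members and higher for Actg1 and Tuba1a, and Tmsb10 differed between libraries. Some of these differences were slight, as for Tuba1b without inhibitors 1 (0.336 against 0.338 UMIs). Tubb4a, also among the 7, rests on few UMIs, with 0.0039 against 0.0101 and 0.0093 against 0.0132. How many of all genes were lower above the limit was not counted. Because cells were thinned to 1000 UMIs, more activation UMIs leave fewer for other genes, and the part of this was not tested. Only 8 and 4 cells lay above the limit in the libraries with inhibitors, which the setting of the limit fixed in advance and which is not a result. Of these groups 1 to 58 cells lay within 1 UMI of the limit, and cells of 1 library are not replicates, so no test was made.

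Across the 7 other classes 3 of 67 tests of a member in a class were called. Astrocyte-like, endothelial-like, ependymal-like, neuron-like and oligodendrocyte-like cells had none by edgeR or by DESeq2, with 0, 0, 1, 0 and 4 at an unadjusted p under 0.05, beside 422 of 8343, 441 of 8353, 148 of 4051, 95 of 3470 and 635 of 6461 genes at that p. The share of all genes called in those classes was 0.0360%, 0.0359%, 0%, 0% and 0.186%. In oligodendrocyte-like cells, Tuba1a was 0.33 (SE 0.12) and Tuba1b 0.50 (SE 0.18), with adjusted p of 0.30 and 0.33 (edgeR). Choroid plexus-like cells held 2 of the calls, where 5.07% of 4655 genes were called, and mural-like cells 1, where 0.114% of 4382 genes were.

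**Figure D4:**
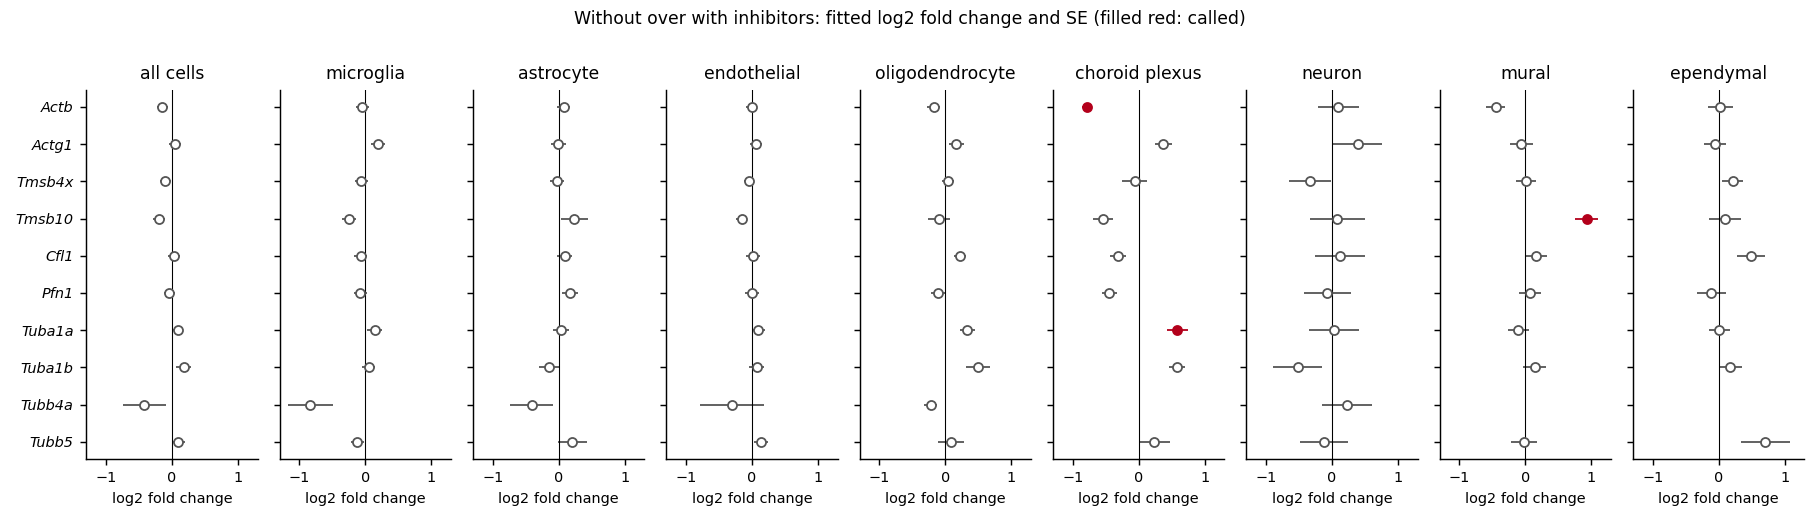
Fitted log2 fold change of each gene without over with inhibitors, with its standard error as a bar, in the sum of all cells and in each of 8 classes. Filled red points are called, which are Actb and Tuba1a in choroid plexus-like cells and Tmsb10 in mural-like cells, and in microglia-like cells no point is filled. A gene without a point in a panel was below the filter on low counts.

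In choroid plexus-like cells, the epithelium that secretes cerebrospinal fluid, Actb fell and Tuba1a rose without inhibitors. Actb was 2163, 2163, 3787 and 3675 CPM after TMM scaling. Both libraries without inhibitors lay below both with inhibitors, and the change was -0.79 (SE 0.08, edgeR, adjusted p = 6.8e-08). Tuba1a was 322, 332, 200 and 246 CPM. The groups again did not overlap, and the change was 0.59 (SE 0.16, edgeR, adjusted p = 0.014), just past the fold limit.

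A further 3 members passed the adjusted p but not the fold limit in these cells, where 7.97% of all genes tested passed the adjusted p. Tuba1b was 580, 666, 380 and 479 CPM, higher without inhibitors by 0.58 (SE 0.12, edgeR, adjusted p = 0.0021), and just short of the fold limit. Pfn1 was 589, 498, 711 and 769 CPM, a change of -0.44 (SE 0.11, edgeR, adjusted p = 0.0078). Tmsb10 was 229, 232, 346 and 321 CPM, a change of -0.54 (SE 0.15, edgeR, adjusted p = 0.017). The other actin, Actg1, was 424, 481, 331 and 382 CPM, a change of 0.37 (SE 0.13, edgeR, adjusted p = 0.081). Of the 9 members tested, 8 had groups that did not overlap, beside 49.4% of all genes tested. As a share of actin UMIs, Actb was 82.7% without and 91.3% with inhibitors on average, while the Tuba1a share of its pair was 34.5% and 34.2%.

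The depth and composition of these cells moved with the groups. Median UMIs per cell were 2736, 2378, 1931 and 1340.5, and Ttr, the transthyretin that this epithelium secretes, took 34.6%, 26.3%, 21.6% and 20.4% of all UMIs. Scaling by library totals in place of TMM moved the median change of all genes to -0.18 and the calls from 195 higher and 41 lower to 101 higher and 158 lower. Actb was then -0.96 and Tuba1a 0.41, the latter no longer called (edgeR, adjusted p = 0.20). With every cell of at least 1000 UMIs thinned to that number, Actb was -0.57, short of the fold limit, and Tuba1a was 0.87 and called. Tuba1a was also not called when with inhibitors 1 was left out (0.42, edgeR, adjusted p = 0.40).

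The class was made of a cluster led by 2900040C04Rik (576 cells) and a cluster led by Kl (43 cells), split 13, 20, 7 and 3 over the libraries in the latter, which had 7157 to 12819 median UMIs. Actb was lower in the Kl-led cluster, at 723, 866, 1201 and 1052 CPM, than in the 2900040C04Rik-led one, at 2160, 2585, 4255 and 4098. In both, each library without inhibitors lay below each with inhibitors. Fitted alone, the larger cluster gave -0.63 for Actb (SE 0.08, edgeR, adjusted p = 0.00039) and 0.66 for Tuba1a (SE 0.15, edgeR, adjusted p = 0.019). The part of depth and of Ttr in these changes was not tested.

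In mural-like cells, the pericytes and smooth muscle cells of vessel walls, Tmsb10 rose without inhibitors. It was 1780, 1584, 717 and 1039 CPM after TMM scaling. The groups did not overlap, and the change was 0.93 (SE 0.18, edgeR, adjusted p = 0.0024). DESeq2 did not call it (0.94, adjusted p = 0.093). Without with inhibitors 1 it was 0.70 and no longer called (edgeR, adjusted p = 0.74), and with cells thinned to 1000 UMIs it was 0.34 (edgeR, adjusted p = 1.00). Actb in these cells was 7451, 6837, 10009 and 9481 CPM, groups that did not overlap either, but its change of -0.45 (SE 0.15) was not called (edgeR, adjusted p = 0.46).

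The clusters of the class were also fitted alone. A cluster led by Acta2, a smooth muscle actin (172 cells), had Tmsb10 at 1646, 1609, 536 and 1003 CPM and gave 1.12 when fitted alone (SE 0.22, edgeR, adjusted p = 0.040). A cluster led by Vtn, a pericyte gene (137 cells), had 674, 352, 1084 and 361 CPM and gave -0.61 (SE 0.34, edgeR, adjusted p = 0.88). The difference between the clusters was not tested. The Acta2-led cluster also carried the 6 endothelial markers at 10077 to 11547 CPM in sum, against 77.4 to 722 CPM in the Vtn-led cluster. Its 6 mural markers summed to 6177 to 7738 CPM, below the endothelial sum in every library, against 25689 to 30345 in the Vtn-led cluster. That list holds Vtn, Kcnj8, Higd1b and Abcc9, leading genes of the Vtn-led cluster, beside Rgs5 and Myh11, so its sum favours that cluster. Of the larger classes, endothelial-like cells had the most Tmsb10. Without inhibitors 1 stood apart in the mural-like class, with choroid plexus markers at 14464 CPM and erythrocyte markers at 40740 CPM, against 1150 to 2148 and 1365 to 6293 CPM in the other libraries. Without that library Tmsb10 was 0.85 (edgeR, adjusted p = 0.0086). The part of these other cell types' RNA in the change was not tested.

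**Figure D5:**
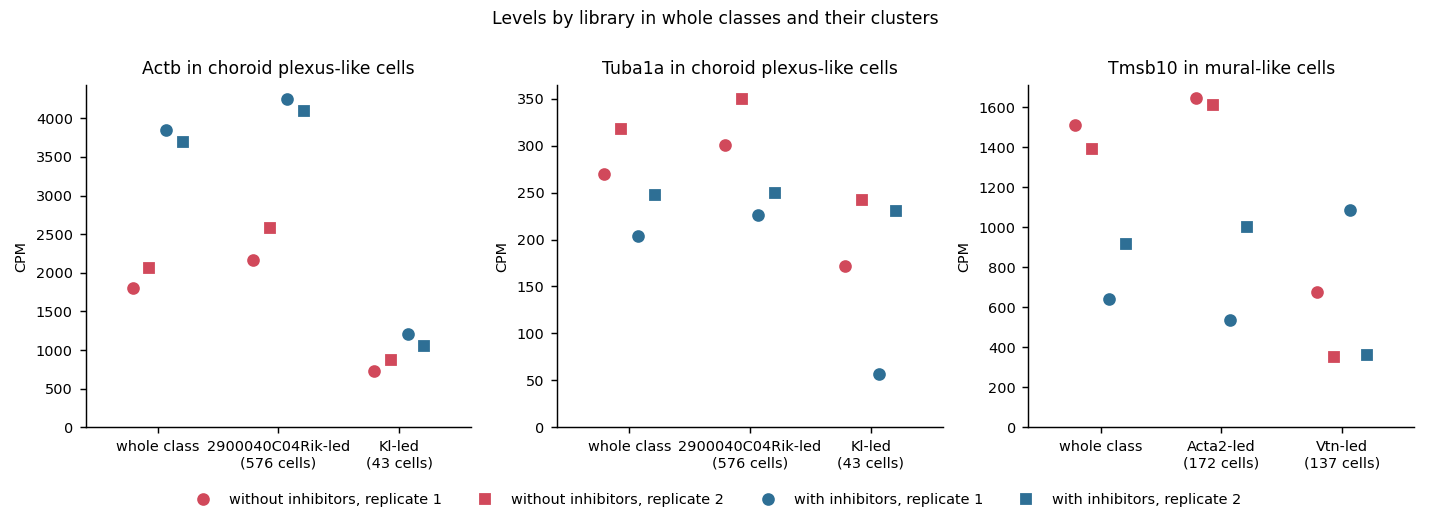
Levels in CPM by library (red without and blue with inhibitors, circle for replicate 1 and square for replicate 2) of the 3 called genes, in the whole class and in each of its clusters. Actb is lower without inhibitors in both choroid plexus-like clusters, whereas Tmsb10 separates the groups in the Acta2-led mural-like cluster and not in the Vtn-led one.

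Whether the inhibitor effect in microglia-like cells differed from that in another class was tested as an interaction, with the animal as a block, and 2 of 70 tests were called. The effect on Actb was 0.71 higher on the log2 scale in microglia-like than in choroid plexus-like cells (SE 0.16, edgeR, adjusted p = 0.0039). The effect on Tmsb10 differed from that in mural-like cells by -1.19 (SE 0.23, edgeR, adjusted p = 0.00029). In these fits 0.849% and 0.192% of all genes were called for choroid plexus-like and mural-like cells. No member was called against astrocyte-like, endothelial-like, ependymal-like, neuron-like or oligodendrocyte-like cells, beside 0.161%, 0.318%, 0.0701%, 0.0676% and 0.221% of all genes. Over all 70 tests, 12 had an unadjusted p under 0.05, and DESeq2 called 0. Over all genes, that p was reached by 513 of 10559 for astrocyte-like, 771 of 9301 for choroid plexus-like and 533 of 10074 for endothelial-like cells. It was reached by 364 of 9980 for ependymal-like, 414 of 9361 for mural-like, 314 of 10362 for neuron-like and 545 of 9514 for oligodendrocyte-like cells.

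The wider cytoskeleton was read from 10 lists of 152 genes that the files hold, which include the members. Neither the sum of all cells nor the microglia-like class had a called gene in any of these lists, where 12 of 13787 and 46 of 8772 of all genes were called (edgeR). In microglia-like cells that was 0 of 2 tested actin isoforms, 7 actin monomer binding genes, 11 of actin severing, 17 of the Arp2/3 complex and its activators, 12 formins, Ena/VASP and capping genes and 26 of filament binding and myosin. It was also 0 of 10 tubulins, 18 tubulin folding genes, 15 microtubule-associated proteins and 8 genes of SRF and MRTF with their targets. The medians of these lists lay between -0.13 and 0.09.

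In choroid plexus-like cells the lists gave 1 called gene beyond the members. Cct4, a subunit of the chaperonin that folds actin and tubulin, was 161, 145, 71.6 and 83.5 CPM, and higher without inhibitors by 1.00 (SE 0.23, edgeR, adjusted p = 0.0046), 1 of 18 tested tubulin folding genes, beside 5.07% of all genes called in this class. All 6 tested tubulins had a positive change there, beside 48.9% of all genes tested. Their median was 0.47, and 1 of them, Tuba1a, was called. Tuba1a and Tuba1b, which share read windows, are not separate evidence in this count. Tubb4b, a β-tubulin of cilia among other sites, was 0.44 (SE 0.12, edgeR, adjusted p = 0.016), short of the fold limit. Arp2/3, severing, formin and capping, filament binding and myosin, and microtubule-associated genes had 0 called of 16, 6, 8, 17 and 6 tested, monomer binding genes 0 of 5, and actin isoforms and SRF and MRTF targets only Actb of 2 and 3. Across the 9 fits no further gene of the lists was called. In oligodendrocyte-like cells Tppp3, a tubulin polymerization-promoting protein, was 0.50 (SE 0.11, edgeR, adjusted p = 0.025), also short of the fold limit.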

How the data were processed

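The authors deposited filtered matrices of UMI counts per gene and barcode, 1 per library, made with bcl2fastq and Cell Ranger 3.0.0 against mm10 (GRCm38) with a filtered Ensembl annotation and 10x Genomics 3′ chemistry, per the labels, the submitters' processing notes and the study's methods. No column was normalized. Cells with at least 400 genes and at most 20% mitochondrial UMIs were kept. Doublets were called from 2 simulated pairs per cell. Cells were clustered (2000 variable genes, 30 principal components, Leiden resolution 1) with cytoskeleton and activation genes left out. A cluster took a name with at least 3 of its markers, each higher by 1 on the log2 scale and in at least 10% of cells.

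Summed counts were fitted with edgeR 4.0.16 (limma 3.58.1, R 4.3.3; filterByExpr, TMM, robust glmQLFit, glmQLFTest), with DESeq2 1.42.0 as an alternative. Clustering used scikit-learn 1.9.0 and leidenalg 0.10.2. The scripts were tested on simulated data. With 2 mice per group an exact two-sided permutation test cannot go below p = 0.333, so single values were not tested that way. Libraries came from separate mice. Depth per library is in the report, and UMIs carry counting error beside the spread between mice.

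The members, gene lists and tests were chosen with earlier results of these data known. Named were all members, for each member its 3 most alike genes, and of each list at most the 4 called genes with the largest change. Tubb4b and Tppp3, and the clusters within classes, were picked after their values were seen. The alternatives were other scalings, DESeq2, no low-count filter, no fold limit, each mouse left out, the replicate block, stricter cells (at least 1000 UMIs and at most 10% mitochondrial UMIs), doublets kept and 2 other clusterings. Fitting clusters alone and thinning cells to 1000 UMIs before summing were added after seeing the data.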

Additional observations from a re-analysis of the deposited data

Results flagged for a closer look

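The inhibitor effect on Actb differed between microglia-like and choroid plexus-like cells by 0.71 on the log2 scale (interaction test, edgeR, adjusted p = 0.0039). Actb in the latter was lower in both libraries without inhibitors than in both with, and its replicates in microglia-like cells overlapped.

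The inhibitor effect on Tmsb10 differed between microglia-like and mural-like cells by -1.19 (interaction test, edgeR, adjusted p = 0.00029). Tmsb10 was higher in both mural-like libraries without inhibitors and lower in both microglia-like ones, by -0.24 in the fit. Over 13 alternatives the first difference ran from 0.50 to 0.90 and was called in 8, and the second from -1.44 to -0.92 and was called in 11. Causes were not tested.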

How the results depend on the processing

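Members called in all cells were 0, with 0 to 1 when each mouse was left out. In microglia-like cells 0 were called under each alternative run. Of 67 tests in the other classes the 3 calls became 1 with DESeq2, 6 with no limit on the fold change, 5 with stricter cells, 1 with cells thinned to 1000 UMIs (run in the choroid plexus-like and mural-like classes, which held all 3) and 1 to 4 when each mouse was left out. The 2 interaction calls became 0 with DESeq2, 1 with no low-count filter and 0 to 2 when each mouse was left out. A mouse left alone in its group was assumed to vary like the other group. Over 1242 refits of a member's change in a class, 1194 kept their direction and call or moved within the spread, 9 lost and 13 gained a call, 25 moved further without a call, and 1 reversed, which was Tmsb10 in the Vtn-led mural-like cluster alone at -0.61. The cause was not tested. Actb in choroid plexus-like cells ran from -0.96 to -0.57 over 16 alternatives and was called in 15. Tuba1a ran from 0.41 to 0.87 (adjusted p 0.0041 to 0.40) and was called in 11 of 16, not with DESeq2, doublets kept (0.55), library totals, the replicate block or without with inhibitors replicate 1. Tmsb10 in mural-like cells ran from -0.61 to 1.24 and was called in 13 of 17. These tallies, and those of the interactions, include the fit with no fold limit, which repeats the main fit and can only add calls. In choroid plexus-like cells the 2 other clusterings also gave the main fit again, -0.79 for Actb and 0.59 for Tuba1a.

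The labels do not say that equal replicate numbers mark a pair, and deviations of equal numbers correlated by -0.13 to 0.089 over the classes. Olfactory ensheathing-like cells, however, numbered 29, 0, 32 and 0, and so came only from replicate 1 of each group. Whether equal numbers share a step of the work was not tested, and the main fits hold no replicate block. With the replicate block 0 members were called in all cells, 0 in microglia-like cells and 2 in the other classes, where Tuba1a was 0.57 and under the fold limit. Tubb4a rests on few UMIs in microglia-like and endothelial-like cells.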

Other observations

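A cluster of 97 cells led by Cd74, H2-Aa and H2-Eb1, which carried markers of more than 1 blood cell type and stayed unnamed, had 11366 ± 3057 CPM of Actb, 19391 ± 3082 of Tmsb4x and 2689 ± 363 of Pfn1 (SD, n = 4). Its Pfn1 level exceeded that of microglia-like cells in each library. Its Tuba1a level was 101 ± 39.3 CPM. Olfactory ensheathing-like cells (61 cells) came only from replicate 1 of each group and had 3810 ± 1116 CPM of Tmsb10 (SD, n = 2), 47.8% of the β-thymosin pair being Tmsb4x.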
